A study of Mus musculus with 11 samples.

Results

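The genes described here encode the nuclear subunits of the mitochondrial oxidative phosphorylation machinery in mouse haematopoietic stem cells. Members were all entries of the deposited table with a symbol that starts with Nduf, Uqcr or Atp5, with Cox4 to Cox8 followed by a letter, or that is Sdha, Sdhb, Sdhc or Sdhd, and with at least 110 counts summed over the 11 libraries. Cox4i2 and numbered pseudogenes were left out by name. Of 49585 entries, 98 met the name rule and 86 of these also met the count floor. Sorted by symbol, they comprised 36 genes of complex I and 8 complex I assembly factors of the Ndufaf series. The others were 4 genes of complex II, 8 of complex III, 13 of complex IV and 17 of complex V, the ATP synthase. Whether each of them is a structural subunit was not checked. Ndufa4 was counted with complex IV, where its protein is now placed.

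The stem cells were taken from the marrow of C57BL/6 mice and sorted as Lin- c-Kit+ Sca-1+ CD48- CD150+ cells, then divided into CD41- and CD41+ fractions. Control mice had received rabbit serum, and the other mice were sampled 24 h after platelet depletion, for which the labels name no agent. No genetic change is given for any group, and the sources used here do not state the age or sex of the mice. Control mice gave 3 CD41- and 2 CD41+ libraries and depleted mice gave 3 of each fraction, all made from the RNA of 1000 cells out of a pool of 3 mice and described as biological replicates.

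Oxidative phosphorylation couples the oxidation of NADH and succinate to the synthesis of ATP in the inner mitochondrial membrane. Complexes I and II pass electrons to coenzyme Q, complex III passes them on to cytochrome c, complex IV reduces oxygen, and complex V uses the proton gradient built by complexes I, III and IV. Most subunits are encoded in the nucleus and imported, while a core of hydrophobic subunits of complexes I, III, IV and V is encoded in mitochondrial DNA and complex II is entirely nuclear. Quiescent adult stem cells of the marrow are known for a low rate of respiration, and respiration is known to rise when they enter division or differentiate. The study compared the CD41 fractions and the state before and after platelet loss.

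Library totals ran from 0.974 M counts in depleted CD41+ replicate 1 to 9.95 M in depleted CD41- replicate 1. All 86 members passed the filter on low counts, together with 13448 genes in all. Levels are CPM, counts scaled to a common total, on the scale of trimmed-mean (TMM) normalised library sizes, and tests are from the quasi-likelihood model of edgeR with Benjamini-Hochberg adjustment over the 13448 genes, with a call at an adjusted p under 0.05. Itga2b, which encodes CD41, averaged 389 ± 49.9 CPM (SD, n = 2) in control and 212 ± 38.4 CPM (n = 3) in depleted CD41+ cells, against 69.01 ± 26.8 and 42.2 ± 4.08 CPM (n = 3 each) in CD41- cells. All 8 genes used to check the sort had counts in every group, Cd48 included, which lay between 12.9 and 106 CPM. Their summed level was lower after depletion. It was between 1492 and 1736 CPM in control and 902 and 1186 CPM in depleted CD41- libraries. In CD41+ libraries the ranges of 1076 to 1423 and 604 to 1080 CPM overlap. Mean Cd48 rose instead, from 25.7 to 42.2 CPM in CD41- and from 39.9 to 62.5 CPM in CD41+ cells. Mean Slamf1 rose from 20.9 to 31.9 CPM in CD41- and fell from 51.9 to 36.9 CPM in CD41+ cells. Mecom had 133 and 114 CPM in CD41- and 65.3 and 67.8 CPM in CD41+ cells, and the remaining genes had lower means in both fractions. The sum of 10 megakaryocyte genes was also lower after depletion, with ranges of 923 to 1408 and 511 to 820 CPM in CD41- and of 1031 to 1546 and 558 to 845 CPM in CD41+ libraries. In control mice 10 macrophage genes summed to between 1435 and 1633 CPM in CD41- and 2227 and 7131 CPM in CD41+ libraries, and 10 erythroid genes to between 2938 and 4817 and 5199 and 6430 CPM. The part of these lists in the results was not tested. Transcripts of 12 neutrophil genes were present in all libraries and summed to between 8694 and 15119 CPM (CD41-) and between 24216 and 84391 CPM (CD41+) in control mice. After depletion the sums were between 4419 and 37023 CPM (CD41-) and between 15148 and 52569 CPM (CD41+), so the CD41 fractions were separate in control mice and overlapped in depleted mice. CPM are relative values, and in bulk libraries fewer cells of a type and less RNA per cell cannot be told apart.

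Together the members took up a larger share of the transcripts after platelet depletion. Their summed level was 17094, 19813 and 15793 CPM in the 3 control CD41- libraries and 21684, 21381 and 23133 CPM in the 3 depleted CD41- libraries. In CD41+ cells it was 21758 and 20061 CPM in control and 26643, 22768 and 24994 CPM in depleted libraries. Depleted libraries thus lay above control libraries of the same fraction without overlap, whereas depleted CD41- replicates 1 and 2 lay just under control CD41+ replicate 1. The control CD41- libraries were the lowest group and the depleted CD41+ libraries were the highest, apart from depleted CD41- replicate 3, which exceeded 1 of them.

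Every complex shared in this pattern by its group means, but not always without overlap of libraries. For complex IV, control CD41+ replicate 1 had 3846 CPM and depleted CD41+ replicate 2 had 3729 CPM. For the assembly factors, control CD41- replicate 2 had 360 CPM and depleted CD41- replicate 2 had 330 CPM. Summed levels of complex I averaged 5055 ± 423 CPM (SD, n = 3) in control CD41-, 5766 ± 676 CPM (n = 2) in control CD41+, 6202 ± 317 CPM (n = 3) in depleted CD41- and 6823 ± 585 CPM (n = 3) in depleted CD41+ cells. Complex V held the largest sums in CPM, with 5847 ± 921, 7707 ± 151, 7815 ± 270.3 and 9109 ± 1467 CPM in the same order of groups. Per kb of exon, complex I held the largest sums in each group, at 3737, 4148, 4528 and 4955 CPM per kb. Complex V had 2360, 2988, 3106 and 3612 CPM per kb. Complex IV averaged 3165 ± 445, 3492 ± 501, 3883 ± 258 and 4193 ± 409 CPM, and complex III averaged 1838 ± 85.8, 1980.2 ± 192, 2103 ± 120 and 2391 ± 185 CPM. Complex II had the smallest sums of the complete complexes, at 1350 ± 140, 1596 ± 44.5, 1688 ± 39.9 and 1826 ± 81.2 CPM. In each of the 5 complexes the group means stood in the same order, with control CD41- cells lowest and depleted CD41+ cells highest. With libraries pooled over the fractions, the log2 ratio of depleted over control libraries was between 0.25 for complex III and 0.36 for complex V. It was 0.31 for all members, and summing levels per kb of exon also gave 0.31 for all members. The control pool held 3 CD41- and 2 CD41+ libraries and the depleted pool 3 of each. CD41+ means were higher, so these pooled ratios also carry part of the CD41 difference.

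**Figure D1:**
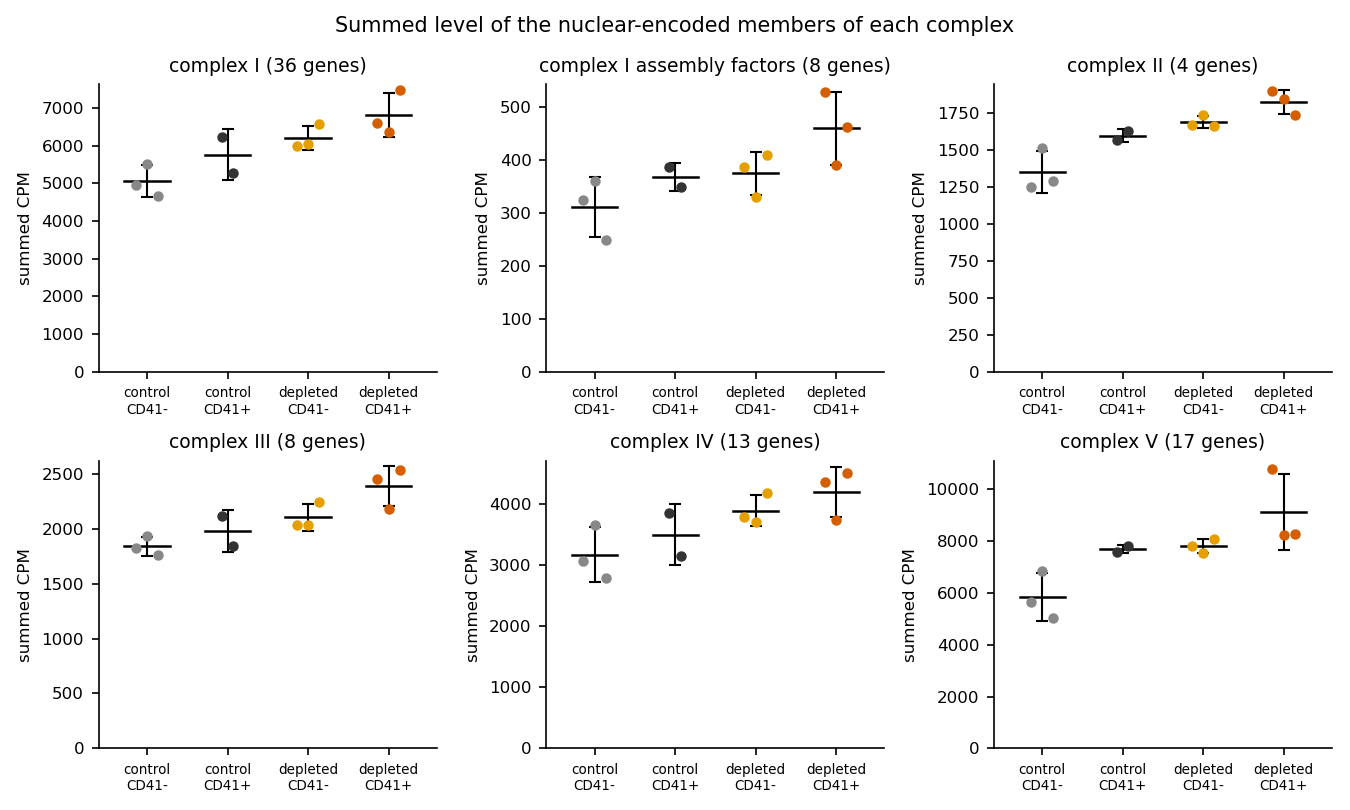
Summed CPM (y axis) of the members of each complex in the 4 groups (x axis), with 1 point per library, the group mean as a horizontal line and the SD as an error bar. Means rise from control CD41- to depleted CD41+ cells in each panel apart from a near tie of control CD41+ and depleted CD41- cells in complex V and in the complex I assembly factors, and depleted CD41+ replicate 1, the shallowest library, gives the highest point of complex V at 10802 CPM.

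The response to depletion, averaged over both fractions, was the comparison in which most members changed. Of 86 members, 12 were called higher (background 3.6% of 13448 genes) and 1 was called lower (background 2.73%), and 73 did not pass. The median log2 fold change was 0.33 over the members, a fold of 1.26, against -0.01 over all genes tested, and 79 of 86 members had a positive estimate against 49.2% of all genes. Medians by complex were 0.34 for complex I, 0.32 for its assembly factors, 0.34 for complex II, 0.25 for complex III, 0.48 for complex IV and 0.29 for complex V, and that of complex IV was 0.30 without control CD41+ replicate 2. The called members were 5 of complex I, 1 of complex II, 2 of complex III, 3 of complex IV with the 1 that fell, and 2 of complex V, and no assembly factor was among them. The count depended on single libraries. Of the control libraries, leaving out CD41- replicate 1 gave 8 calls, CD41- replicate 3 gave 7 and CD41+ replicate 2 gave 3. Of the depleted libraries, leaving out CD41- replicate 1 gave 7 calls, CD41- replicate 3 gave 2, CD41+ replicate 3 gave 3, and CD41+ replicate 1, the shallowest, gave 17. With the mean level of the neutrophil genes as a covariate, 12 members were higher and 1 was lower. Of the 11 fits that left out 1 library, Cox7a2l passed in 11, Sdhb in 10, Atp5o in 9, Atp5k and Uqcrq in 8, Cox6a1 in 7, Ndufc2 and Uqcr10 in 5, Cox5a and Ndufa9 in 4, Ndufa10 in 3, Ndufab1 in 2 and Ndufb6 in 1.

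**Figure D2:**
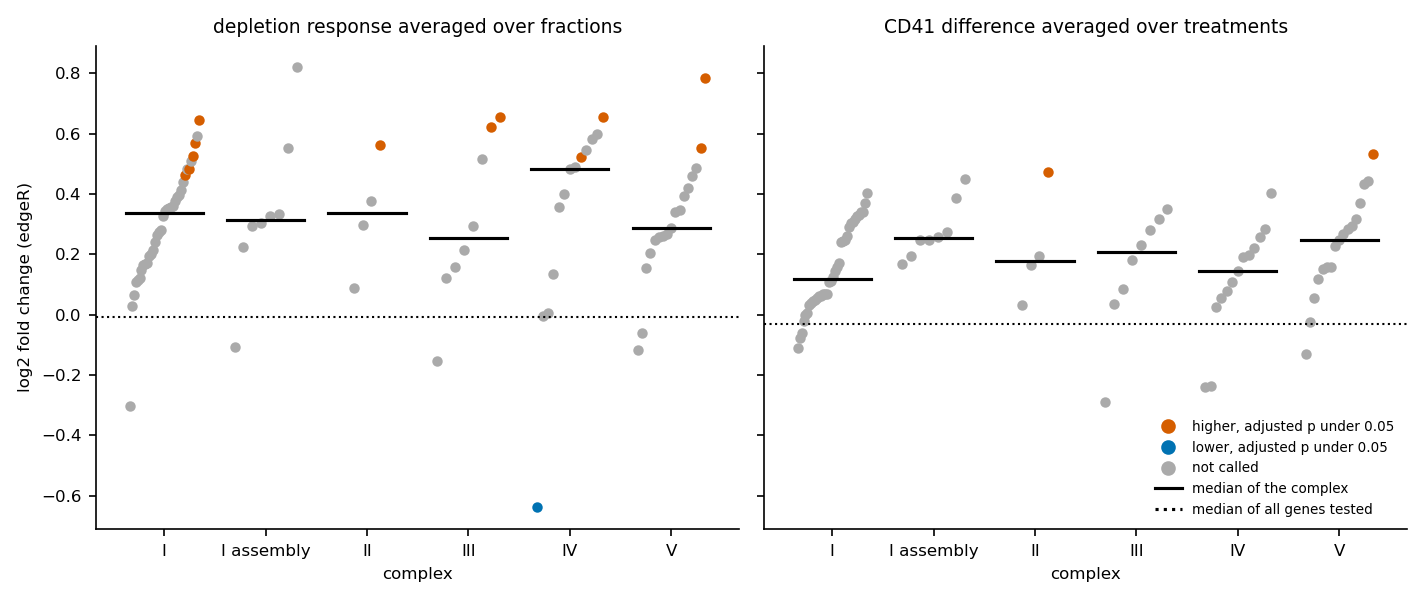
Log2 fold changes (y axis) of the 86 members by complex (x axis), for the depletion response averaged over fractions (left) and the CD41 difference averaged over treatments (right). Orange points were called higher and the blue point was called lower at an adjusted p under 0.05, solid lines are medians of the complexes, and the dotted line is the median of all genes tested, which lies under the median of each complex in both panels.

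Among complex I genes, 5 of 36 rose and 31 did not pass, with 35 positive estimates. Ndufc2, an accessory subunit of the membrane arm, measured 144, 135 and 109.7 CPM in control CD41- and 188, 137 and 219 CPM in depleted CD41- cells. The CD41+ libraries held 127 and 110.4 CPM before and 248, 154 and 225 CPM after depletion. Depleted and control libraries overlapped in CD41- cells only, through depleted CD41- replicate 2, and the averaged log2 fold change was 0.65 ± 0.16 (SE, adjusted p = 0.0299).

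Ndufa9, an accessory subunit near the junction of the matrix and membrane arms, measured 149, 183 and 153 CPM in control CD41- and 237, 216 and 293 CPM in depleted CD41- cells. Control and depleted CD41+ libraries had 236 and 221 CPM and 291, 265 and 292 CPM, respectively. All depleted libraries lay above the control libraries of their own fraction, and the averaged change was 0.46 ± 0.12 (adjusted p = 0.0322). Ndufa10, another accessory subunit, changed by 0.48 ± 0.13 (adjusted p = 0.0423), from 162 ± 20.3 to 238 ± 19.8 CPM in CD41- and from 186 ± 39.8 to 246 ± 37.6 CPM in CD41+ cells. Ndufab1, the mitochondrial acyl carrier protein, which also serves fatty acid and lipoic acid synthesis, changed by 0.53 ± 0.14 (adjusted p = 0.0425). It measured between 41.0 and 67.1 CPM in the 5 control libraries and between 67.4 and 107.9 CPM in the 6 depleted ones. Ndufb6, the fifth called gene of the complex and outside the rule for named genes, changed by 0.57 ± 0.16 (adjusted p = 0.0495), but 39.0% of its annotated exon bases are shared with Smim27.

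The 2 complex I members with the highest level per kb of exon, Ndufa1 (386 CPM per kb) and Ndufa2 (339 CPM per kb), did not pass, with 0.11 and 0.35 for the averaged depletion response on the log2 scale. Ndufb2, the lowest at 9.6 CPM per kb, had 0.17. Ndufa6, an accessory subunit of the matrix arm, was the one complex I member with a negative averaged estimate, -0.30, and is named here after its values were seen. Its estimates were -0.33 in CD41- and -0.27 in CD41+ cells, and it was not called in any comparison. The 8 Ndufaf assembly factors, which help to build complex I without remaining in it, had 7 positive estimates of 8. Ndufaf8 and Ndufaf1, the highest of them at 64.5 and 34.9 CPM per kb, had averaged responses of -0.11 and 0.30, and Ndufaf5, the lowest at 12.1 CPM per kb, had 0.82 without passing.

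Complex II is succinate dehydrogenase, which also works in the tricarboxylic acid cycle. Sdhb, its iron-sulfur subunit (ENSMUSG00000009863, GRCm38 chromosome 4, 140961203 to 140979193, plus strand), measured 215, 239 and 178 CPM in control CD41- and 311, 299.9 and 327 CPM in depleted CD41- cells. Among CD41+ cells the control libraries gave 252 and 233 CPM and the depleted ones 323, 352 and 391 CPM. All 6 depleted libraries lay above all 5 control libraries, and the averaged change was 0.56 ± 0.11 (adjusted p = 0.0108), past the threshold in 10 of 11 fits that left out 1 library, with adjusted p = 0.0523 without control CD41+ replicate 2. The other members of the complex had positive estimates that did not pass. Sdha, the flavoprotein, averaged 740.1 ± 87.1 CPM in control CD41- cells and had a change of 0.09, Sdhc had 0.30, and Sdhd, which with Sdhc anchors the enzyme in the membrane, had 0.38. Per kb of exon Sdhd was highest at 306 CPM, followed by Sdha at 193, Sdhb at 127 and Sdhc at 49.7 CPM per kb.

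In complex III, 2 of 8 members rose and 6 did not pass. Uqcrq, a small subunit bound to cytochrome b, measured 87.5, 100.3 and 81.5 CPM in control CD41- and 118, 108.9 and 167 CPM in depleted CD41- cells. CD41+ values were 94.9 and 112 CPM without and 152, 166 and 208 CPM with depletion. Groups of the same fraction did not overlap, and the averaged change was 0.66 ± 0.15 (adjusted p = 0.0192). Uqcrq had the lowest level per kb of the complex, 69.4 CPM. Uqcr10, the highest at 288 CPM per kb, changed by 0.62 ± 0.15 (adjusted p = 0.0281), from 127 ± 17.3 to 180.2 ± 19.1 CPM in CD41- and from 133 ± 37.8 to 220.3 ± 49.6 CPM in CD41+ cells. Uqcrb, a quinone-binding subunit with 283 CPM per kb, had 0.52 and did not pass. Among the remaining members, Uqcrh, the hinge protein, was the only member of the complex with a negative averaged estimate, -0.16, and is named after its values were seen.

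Complex IV, cytochrome c oxidase, held the member that fell among 11 members with positive estimates of 13. Cox6a1, the widely expressed form of subunit VIa, measured 210.1, 222 and 172 CPM in control CD41- and 323, 343 and 364 CPM in depleted CD41- cells. The CD41+ libraries held 273 and 285 CPM before and 276, 365 and 366 CPM after depletion. Groups did not overlap in CD41- cells and overlapped in CD41+ cells through depleted replicate 1. The averaged change was 0.52 ± 0.12 (adjusted p = 0.0204). Cox5a, which binds to the core of the enzyme, changed by 0.65 ± 0.17 (adjusted p = 0.0343), from 224 ± 43.9 to 334 ± 74.5 CPM in CD41- and from 281 ± 23.9 to 468 ± 128 CPM in CD41+ cells. Of its annotated exon bases, 12.8% are shared with Gm26631.

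Cox7a2l (ENSMUSG00000024248, GRCm38 chromosome 17, 83501918 to 83517330, minus strand), also known as SCAF1 or COX7RP, links complex III to complex IV in respiratory supercomplexes, and C57BL/6 mice are known to carry a short form of its protein. Its transcript measured 359.7, 465 and 351 CPM in control CD41- and 258, 247 and 247 CPM in depleted CD41- cells. Control and depleted CD41+ libraries had 347 and 315 CPM and 237, 186 and 220.2 CPM, respectively. All 6 depleted libraries lay below all 5 control libraries, and the level went down in both fractions by nearly the same amount. The averaged change was -0.64 ± 0.12 (adjusted p = 0.00609), a fold of 0.643, and it passed in all 11 fits that left out 1 library, with adjusted p between 0.00542 and 0.0449.

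Several tissue forms of complex IV subunits lay under the count floor. Cox6a2, the heart and muscle partner of Cox6a1, had 36 counts over the 11 libraries and lay under the floor, as did Cox7a1 with 31 counts, Cox8b with 1 count and Cox8c with 0 counts. For Cox8c this allows up to between 0.301 and 3.08 CPM per library, at 3 counts of the library total, for counting error only. Cox8a had the highest level per kb of all members, 489 CPM per kb, and an averaged depletion response of -0.0035 on the log2 scale, and Cox4i1, at 446 CPM per kb, had 0.0049. These abundant subunits had estimates close to 0, while Cox6b1 had 0.58, Cox7a2 0.40 and Ndufa4 0.48 without passing. Cox6b2, known mainly from testis, was present in every library, at between 19.1 and 40.0 CPM, and was the lowest member of the complex per kb, at 27.1 CPM. Ndufa4l2, the paralogue of Ndufa4 known as a hypoxia target, had 13 counts in all.

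Complex V had 2 of 17 members that rose and 15 that did not pass. Atp5k, the e subunit of the membrane part, measured 63.5, 72.0 and 49.9 CPM in control CD41- and 111.5, 89.8 and 115 CPM in depleted CD41- cells. Among CD41+ cells the control libraries gave 88.7 and 56.5 CPM and the depleted ones 119, 102 and 158 CPM. All 6 depleted libraries lay above all 5 control libraries, the closest being 89.8 and 88.7 CPM. The averaged change was 0.78 ± 0.17 (adjusted p = 0.0174), a fold of 1.72. Atp5o, the subunit that confers sensitivity to oligomycin and ties the catalytic head to the stator, measured 214, 267 and 205 CPM in control CD41- and 329, 353 and 386 CPM in depleted CD41- cells. CD41+ values were 349 and 279 CPM without and 397, 424 and 479 CPM with depletion. Groups of the same fraction did not overlap, and the averaged change was 0.55 ± 0.12 (adjusted p = 0.0159). Of its annotated exon bases, 47.9% are shared with other entries, so its counts are less certain.

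Atp5a1 and Atp5b, subunits of the catalytic head, and the shaft subunit Atp5c1 were the most abundant members of complex V per kb, at 486, 448 and 474 CPM per kb. Their averaged responses were 0.26, 0.42 and 0.20 and did not pass. The 3 genes that encode the same c subunit of the rotor ring differed in level, with Atp5g3 at 203, Atp5g1 at 24.2 and Atp5g2 at 17.2 CPM per kb. Their averaged depletion responses were 0.39, 0.46 and 0.15, of which none passed. Atp5l was the lowest member of all, at 1.1 CPM per kb and 364 counts in total over an annotated exon length of 6443 bases.

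**Figure D3:**
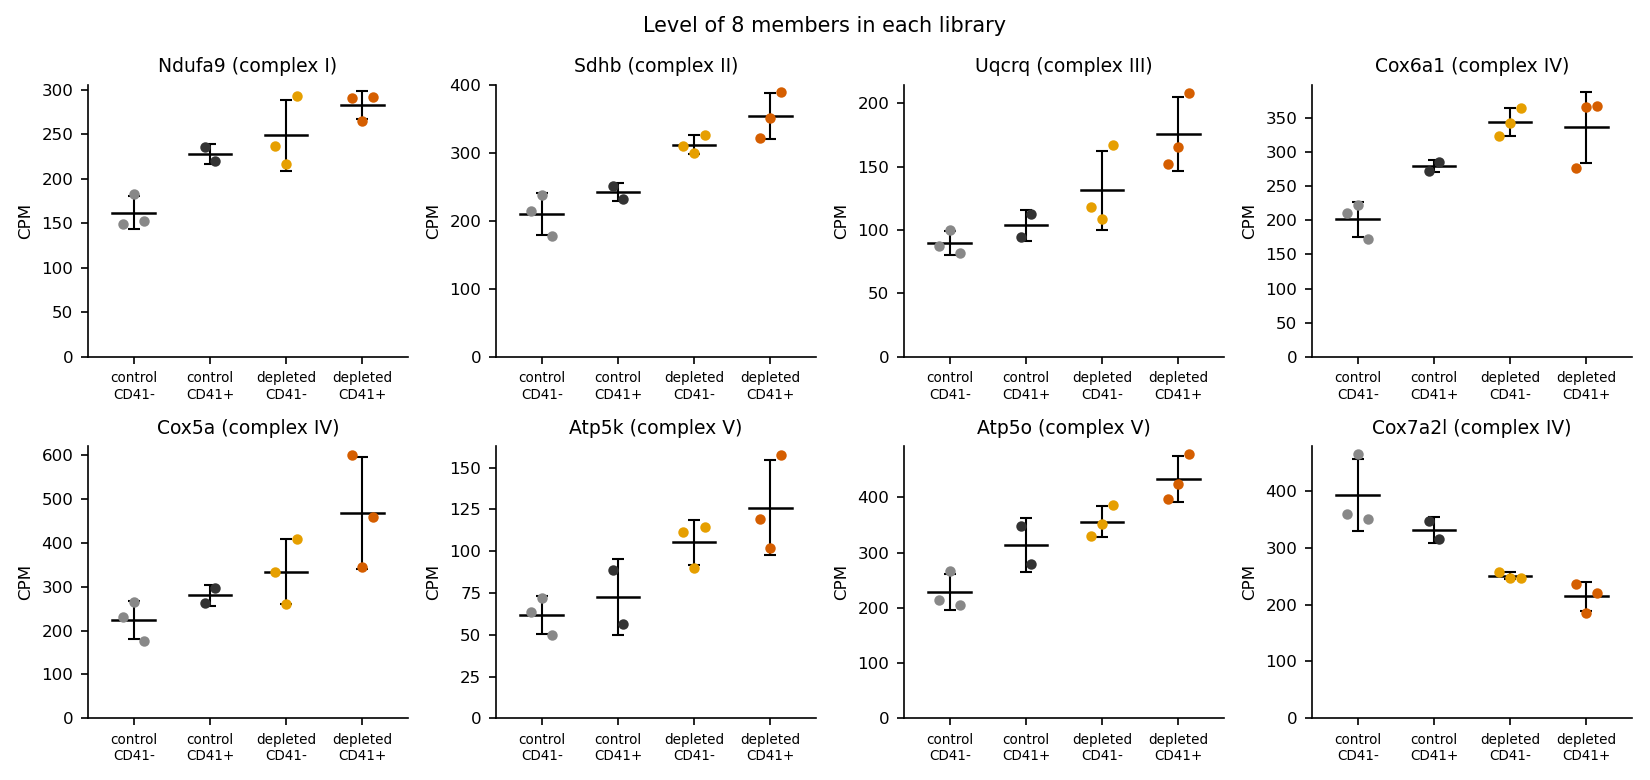
CPM (y axis) of 8 members in the 4 groups (x axis), with 1 point per library, the group mean as a horizontal line and the SD as an error bar. Sdhb and Atp5k lie higher in all 6 depleted libraries than in all 5 control libraries, Cox7a2l lies lower in all 6, and Ndufa9, Uqcrq and Atp5o are separated within each fraction.

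Within each fraction the same direction prevailed but fewer members passed. In CD41- cells 4 members were called higher (background 2.3%) and 1 lower (background 0.892%), with a member median of 0.34 against -0.03 for all genes and 79 of 86 positive estimates. Cox6a1 changed by 0.77 ± 0.16 (adjusted p = 0.0157), Atp5o by 0.64 ± 0.16 (adjusted p = 0.0414), Ndufa9 by 0.62 ± 0.16 (adjusted p = 0.0431) and Cox7a2l by -0.64 ± 0.15 (adjusted p = 0.0368). Cox5b, a peripheral subunit of complex IV on the matrix side, changed by 0.60 ± 0.15 (adjusted p = 0.0462), from 139.7 ± 3.29 to 211 ± 18.4 CPM. The number of calls was 0 when control CD41- replicate 3 or any 1 of the 3 depleted CD41- libraries was left out. Leaving out control CD41- replicate 1 gave 1 call, control CD41+ replicate 1 or depleted CD41+ replicate 2 or 3 gave 2 calls, and replicate 2 of either control fraction gave 3 calls. Of these 11 fits Cox6a1 passed in 7, Atp5o in 4, Cox7a2l in 3, and Ndufa9 and Cox5b in 2. In CD41+ cells no member was called by edgeR in either direction (background 0.0372% higher and 0.0669% lower). At an unadjusted p under 0.05, 20 of 86 members were higher and 1 was lower, against 832 and 814 of 13448 genes. DESeq2 called 2 members higher and 1 lower, and its share over all genes is not given here. The member median there was 0.31 against -0.01 for all genes, and 74 of 86 estimates were positive. The smallest p-values belonged to Cox7a2l (-0.63 ± 0.17, adjusted p = 0.173), Uqcrq (0.77 ± 0.22, adjusted p = 0.192) and Ndufc2 (0.80 ± 0.24, adjusted p = 0.208).

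The groups can also be read by overlap. In CD41- cells, 38 of 86 members (44.2%) had all 3 depleted libraries above all 3 control libraries, as did 12.9% of all genes. In CD41+ cells it was 30 members (34.9%), against 13.2% of all genes, and 20 members (23.3%) were separated upwards in both fractions, against 4.42%. All 6 depleted libraries lay above all 5 control libraries for 7 members, Ndufab1, Ndufb6, Ndufb10, Ndufs5, Sdhb, Atp5j2 and Atp5k, against 2.03% of all genes. Cox7a2l alone among the members lay below in all 6, against 1.92% of all genes. Ndufb10, Ndufs5 and Atp5j2 are named from this separation, after their values were seen.

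The responses of the fractions rest on different libraries and could be set side by side. Across the 86 members the log2 fold changes in CD41- and CD41+ cells had a Pearson r of 0.58 and a Spearman rho of 0.47, given as a description across genes of the same libraries, which are not independent replicates. Over all 13448 genes the Pearson r was 0.25 and the Spearman rho 0.32. For the CD41 differences of control and depleted mice, which also share no library, the members had an r of 0.30 and a rho of 0.25, below the 0.41 and 0.44 of all genes. Both estimates were positive for 71 members (82.6%), against 30.3% of all genes, and both were negative for 4 members, Cox7a2l, Ndufa6, Atp5l and Atp5s. The difference of the responses itself was called for no member and for 0% of 13448 genes in edgeR, and DESeq2 called none of the members. At an unadjusted p under 0.05 there were 0 members with a larger and 2 with a smaller response in CD41+ cells. Among 13448 genes there were 383 and 442, so the share of members was not above that of all genes. Ndufv1, the flavoprotein that oxidises NADH, had -0.58 ± 0.24 (adjusted p = 0.727), and Cox6a1 had -0.49 ± 0.23 (adjusted p = 0.825).

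**Figure D4:**
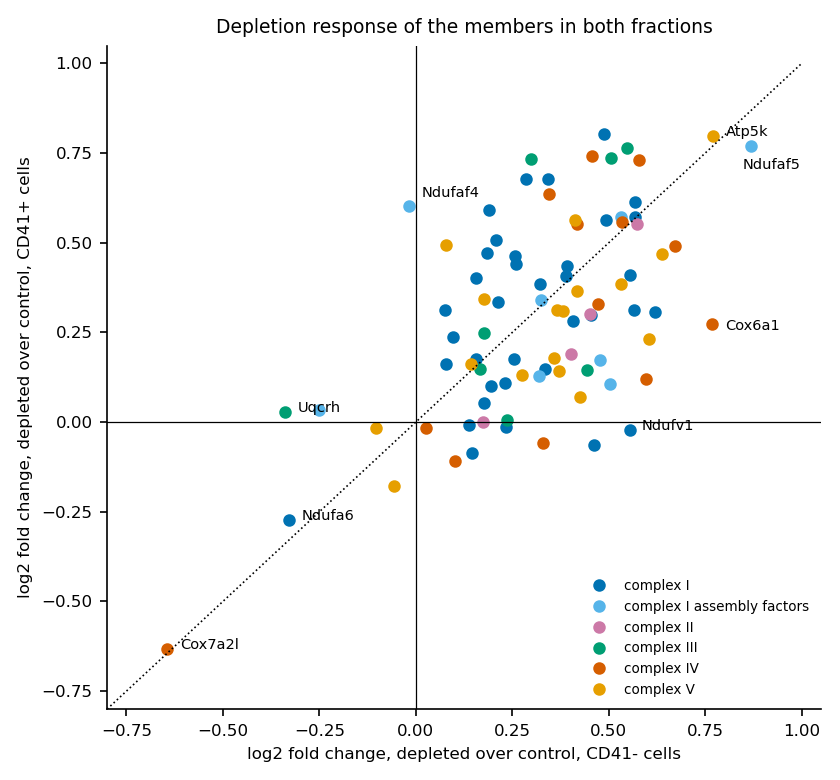
Log2 fold change after depletion in CD41- cells (x axis) and in CD41+ cells (y axis) for each of the 86 members, coloured by complex, with the dotted line marking equal responses. Most points (71) lie above 0 on both axes, and Cox7a2l lies apart at -0.64 and -0.63.

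Members were also somewhat higher in CD41+ than in CD41- cells, with few calls. In the CD41 difference averaged over treatments, 2 of 86 members were called higher (background 2.73%) and none lower (background 2.65%), so the share of called members was near that of all genes. The median log2 fold change was 0.19, a fold of 1.14, against -0.03 for all genes, and 76 of 86 estimates were positive. Atp5g1, the c subunit gene named above, measured 86.6, 79.3 and 74.2 CPM in CD41- and 142.9 and 100.9 CPM in CD41+ cells of control mice. The depleted libraries held 103, 133 and 112 CPM in CD41- and 138, 159 and 179 CPM in CD41+ cells. CD41+ libraries lay above CD41- libraries in both treatments, and the averaged difference was 0.53 ± 0.13 (adjusted p = 0.0344), past the threshold in 4 of 11 fits that left out 1 library. Sdhd measured 271, 324 and 211 CPM in CD41- and 377 and 407 CPM in CD41+ cells of control mice, and after depletion 346, 357 and 397 CPM in CD41- and 556, 434 and 463 CPM in CD41+ cells. Groups did not overlap within either treatment, and the difference was 0.47 ± 0.13 (adjusted p = 0.0445), past the threshold in 2 of 11 such fits. The count of called members ran from 0 to 3 when 1 library was left out, with 0 when control CD41- replicate 3, depleted CD41- replicate 1 or 3, or depleted CD41+ replicate 3 was absent. It was 1 without control CD41- replicate 1, either control CD41+ library, depleted CD41- replicate 2 or depleted CD41+ replicate 2, and without control CD41+ replicate 1 that 1 call was of a lower level. With library size alone in place of TMM it was 0, and it was 1 with the neutrophil covariate, with the fit that was not robust and with consecutive title numbers as a block. In each of these 3 fits Sdhd no longer passed, with adjusted p = 0.167, 0.0544 and 0.06, and Atp5g1 did.

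Medians of the averaged CD41 difference were 0.12 for complex I, 0.25 for its assembly factors, 0.18 for complex II, 0.21 for complex III, 0.14 for complex IV and 0.25 for complex V. Several of them rested on single libraries. The median of complex I became 0.03 or 0.21 when replicate 1 or replicate 2 of the control CD41+ group was left out, and 0.18 or 0.06 when replicate 1 or replicate 3 of the depleted CD41+ group was. Complex IV had 0.01 and 0.24 when these control CD41+ libraries were left out, 0.23 and 0.09 when control CD41- replicate 2 or 3 was left out, and 0.09 when depleted CD41- replicate 2 was left out. Leaving out control CD41- replicate 3 gave 0.17 for the assembly factors and 0.11 for complex II, and leaving out control CD41+ replicate 1 gave 0.12 for complex III. In control mice alone no member was called (background 1.58% higher and 1.04% lower). At an unadjusted p under 0.05, 14 of 86 members were higher and 0 lower, against 1263 and 1280 of 13448 genes. DESeq2 called 3 members higher, and its share over all genes is not given here. The member median was 0.19 against -0.03 for all genes. The smallest p-values were those of Ndufv1 (0.59 ± 0.17, adjusted p = 0.0842), Cox5b (0.52 ± 0.17, adjusted p = 0.11) and Atp5g1 (0.61 ± 0.20, adjusted p = 0.117). In depleted mice no member was called either (background 0.0669% higher and 0.126% lower), and none was called by DESeq2. At an unadjusted p under 0.05, 8 of 86 members were higher and 0 lower, against 560 and 674 of 13448 genes. The member median was 0.18. Atp5g1 (0.46 ± 0.18, adjusted p = 0.431), Sdhd (0.40 ± 0.17, adjusted p = 0.491) and Ndufab1 (0.44 ± 0.19, adjusted p = 0.492) had the smallest p-values there. All CD41+ libraries lay above all CD41- libraries for 27 members in control mice, against 17.4% of all genes, and for 11 members in depleted mice, against 8.35%. The library control CD41+ replicate 2, which held 84391 CPM of neutrophil transcripts, was low for many members. Its mean deviation over the members from their mean log2 level was -0.21, while that of control CD41+ replicate 1 was 0.07, and the part of the neutrophil transcripts in this was not tested.

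The mitochondrially encoded subunits, which are partners of these proteins in complexes I, III, IV and V, were ordered differently over the groups. Their summed level was 29726, 38093 and 34001 CPM in CD41- and 21193 and 15029 CPM in CD41+ cells of control mice. After depletion it was 33597, 29766 and 31618 CPM in CD41- and 19205, 18949.5 and 27876 CPM in CD41+ cells. CD41+ libraries were thus low in mitochondrially encoded and high in nuclear-encoded transcripts, without overlap between the fractions of either treatment in the mitochondrially encoded sum. Of 13 such genes 7 passed the filter, mt-Nd1, mt-Nd2, mt-Nd4, mt-Nd5, mt-Nd6, mt-Cytb and mt-Co1, and these held nearly all of the sum. The others, among them mt-Co2, mt-Co3, mt-Atp6 and mt-Atp8, were nearly absent from the counts. The sum thus holds next to no complex V transcripts and only part of those of complexes I and IV. Of the 7 genes, 5 were called lower (background 2.65%) and 0 higher (background 2.73%) in the averaged CD41 difference, with a median of -0.78. In the averaged depletion response mt-Co1, a catalytic subunit of complex IV, was the 1 called gene, with -0.46 ± 0.12 (adjusted p = 0.0385). Over all genes 2.73% were called lower there, and the median of the 7 was 0.15. Leaving the mitochondrially encoded genes out of the normalisation left the averaged depletion response of the nuclear members at 12 higher and 1 lower.

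**Figure D5:**
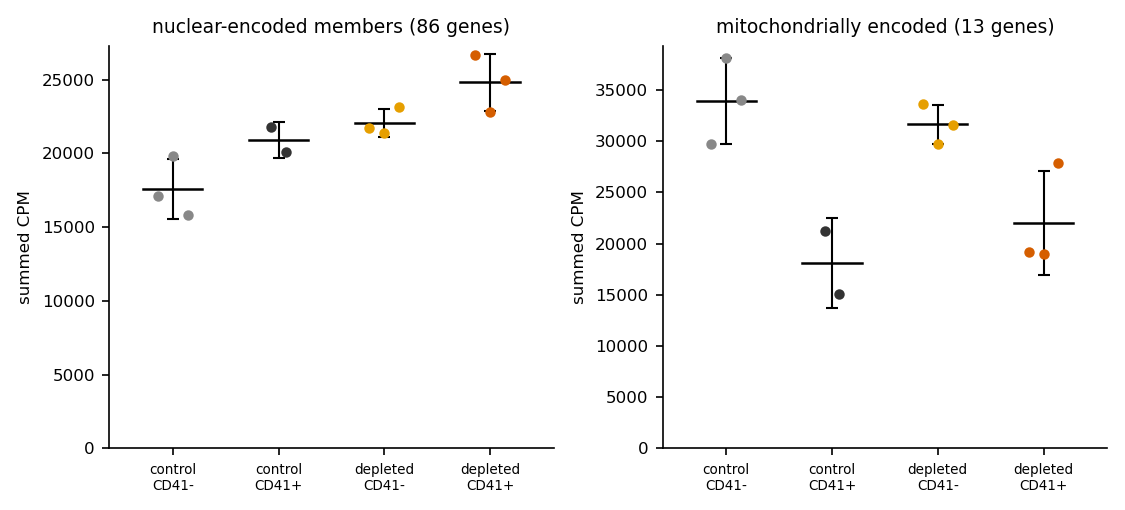
Summed CPM (y axis) of the 86 nuclear-encoded members (left) and of the 13 mitochondrially encoded subunit genes (right) in the 4 groups (x axis), with 1 point per library, the group mean as a line and the SD as an error bar. Nearly all of the sum on the right comes from the 7 mitochondrially encoded genes that passed the filter. CD41+ libraries lie below CD41- libraries of the same treatment on the right, which is not the order on the left.

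Genes around the respiratory chain were read from lists written for this purpose. Over all genes tested, 3.6% were called higher and 2.73% lower in the averaged depletion response. In the averaged CD41 difference the shares were 2.73% and 2.65%. Of 18 genes of electron carriers and coenzyme Q synthesis, 3 rose and 1 fell in the averaged depletion response, with a median of 0.29. Cyc1, the cytochrome c1 of complex III whose symbol the name rule does not take, changed by 0.52 ± 0.13 (adjusted p = 0.0359), Cycs, the soluble cytochrome c, by 0.56 ± 0.16 (adjusted p = 0.0477), and Coq7, a hydroxylase of coenzyme Q synthesis, by 0.86 ± 0.18 (adjusted p = 0.0138). Coq8a, an atypical kinase needed for coenzyme Q synthesis, went the other way at -0.84 ± 0.21 (adjusted p = 0.029). In the averaged CD41 difference 2 of the 18 were higher, Cyc1 at 0.62 ± 0.13 (adjusted p = 0.0168) and Pdss1, which makes the side chain of coenzyme Q, at 0.68 ± 0.18 (adjusted p = 0.0406). Of 18 genes of the tricarboxylic acid cycle, 2 rose after depletion with a median of 0.24, Mdh2 by 0.53 ± 0.12 (adjusted p = 0.0163) and Idh2 by 0.44 ± 0.11 (adjusted p = 0.037). Idh3a, of the NAD-linked isocitrate dehydrogenase, was the 1 gene of that list called in the CD41 difference (0.52 ± 0.13, adjusted p = 0.0285).

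Assembly factors outside the name rule had 1 call. Of 41 in the list 40 were tested, with a median of 0.09 after depletion and no member higher. Only Coa5, of complex IV assembly, was lower, at -0.62 ± 0.15 (adjusted p = 0.0281). That 1 of 40 is near the background of 2.73% of all genes called lower. None of the 40 was called in the averaged CD41 difference. Of 17 regulators of mitochondrial biogenesis none was called in either averaged comparison, and their medians were 0.04 after depletion and -0.03 for CD41. Whether these lists differ from the members was not tested.

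Promoter sequences are shown for 3 members that rose, of which Cox6a1 and Sdhb were picked for holding the words searched and Atp5o for holding none, and for Cox7a2l, which fell. They are given because nuclear respiratory genes are known for binding sites of NRF1, of ETS factors such as GABP, and of YY1 close to their start. RefSeq windows on GRCm38.p6, from 250 bases before to 50 bases after the start site, were at hand for 73 of the 86 members. They were searched on both strands for GCGCATGC (NRF1), CCGGAAG (ETS) and AAGATGGC (YY1), with capitals marking each match, and a GCGCATGCGC run counted as overlapping matches on both strands. Windows are given 5′ to 3′ on the strand of the gene, for Cox6a1 chr5:115348909-115349208 (minus), Sdhb chr4:140961021-140961320 (plus), Atp5o chr16:91931581-91931880 (minus) and Cox7a2l chr17:83514284-83514583 (minus).
Cox6a1: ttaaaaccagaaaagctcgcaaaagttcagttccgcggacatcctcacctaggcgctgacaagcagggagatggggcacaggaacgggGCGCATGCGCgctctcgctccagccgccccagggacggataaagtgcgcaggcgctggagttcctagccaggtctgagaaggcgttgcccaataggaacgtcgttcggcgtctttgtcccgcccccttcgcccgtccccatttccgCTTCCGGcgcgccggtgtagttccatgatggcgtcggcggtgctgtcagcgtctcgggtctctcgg
Sdhb: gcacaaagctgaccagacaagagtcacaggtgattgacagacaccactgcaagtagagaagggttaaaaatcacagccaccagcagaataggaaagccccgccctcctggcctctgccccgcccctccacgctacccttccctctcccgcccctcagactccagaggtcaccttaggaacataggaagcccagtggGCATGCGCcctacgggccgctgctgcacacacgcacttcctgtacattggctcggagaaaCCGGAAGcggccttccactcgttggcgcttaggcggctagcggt
Atp5o: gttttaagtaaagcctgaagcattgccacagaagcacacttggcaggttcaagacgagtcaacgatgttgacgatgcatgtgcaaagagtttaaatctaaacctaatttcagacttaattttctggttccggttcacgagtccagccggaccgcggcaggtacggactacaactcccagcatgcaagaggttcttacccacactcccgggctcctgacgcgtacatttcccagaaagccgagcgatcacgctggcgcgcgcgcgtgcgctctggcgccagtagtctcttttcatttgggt
Cox7a2l: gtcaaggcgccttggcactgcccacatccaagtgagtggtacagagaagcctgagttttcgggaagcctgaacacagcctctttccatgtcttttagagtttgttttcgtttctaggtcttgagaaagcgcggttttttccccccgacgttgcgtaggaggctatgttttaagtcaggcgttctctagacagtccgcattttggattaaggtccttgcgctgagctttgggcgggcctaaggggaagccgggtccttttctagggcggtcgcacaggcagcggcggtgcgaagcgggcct

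Of the 11 members called higher with a window, Cox6a1, Atp5k and Sdhb held the NRF1 word and the ETS word in either orientation, Ndufb6 held the ETS word and Ndufa9 the YY1 word. The windows of Ndufc2, Ndufa10, Ndufab1, Uqcr10, Cox5a and Atp5o held none of the words, and neither did that of Cox7a2l. The NRF1 word was found in 12 of 73 member windows (16.4%), against 3.05% of 27025 genes with a window. The ETS word was found in 18 (24.7%), against 9.93%, and the YY1 word in 11 (15.1%), against 3.19%. At least 1 of the words was found in 34 windows (46.6%), against 14.9% of all genes, and in 5 of the 11 windows of members called higher in the averaged depletion response. Matches were thus found in windows of called and uncalled members alike, and a match is a run of letters, not a measured binding site. The window of Cox7a2l lies inside the interval of the gene given above, so other start sites of that gene were not covered.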

How the data were processed

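RNA of 1000 sorted cells per library was reverse transcribed from poly-dT, amplified over 17 PCR cycles and tagmented from 1.5 ng of cDNA, per the labels' protocols. The values are raw counts per gene, deposited by the authors and made with cutadapt, STAR and HTSeq 0.6.1p1 on GRCm38 (mm10), per the submitters' processing notes. The sources used here do not state the strand setting, the annotation release or the treatment of reads that match several places. Members with shared exons (30 of 86 by annotation) therefore have less certain counts. The same holds for members with processed pseudogenes, which were not searched for and are not part of the 30. Symbols, exon lengths and positions come from GENCODE M21. Reads amplified without molecular identifiers are not independent molecules, and floors cover counting error only.

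Counts were filtered with filterByExpr (minimum count 10, minimum total 15), which kept 13448 genes and 99.7% of counts, scaled by TMM and fitted with the robust quasi-likelihood model of edgeR 4.0.16 in R 4.3.3 over all 11 libraries in 4 groups. The procedure was tested on simulated data. The 7 comparisons were each adjusted by Benjamini-Hochberg at 0.05 over all genes tested. Replicate numbers follow the order of deposit, since the labels number the libraries but name no batch and no pairing, and none was modelled. Alternatives were RLE factors, library size alone, normalisation without mitochondrially encoded genes, no filter, a fit that was not robust, DESeq2 1.42.0, voom of limma 3.58.1 with quality weights, fits on the groups compared, a block of consecutive title numbers, a neutrophil covariate and leaving out each library. Members and lists were chosen with earlier results of these data known. Named members were the called ones (up to 12 per comparison, otherwise up to 4 per complex by p), the 3 with the smallest p where none was called, the 2 highest and the lowest per kb of each complex, complex II, tissue forms and Ndufab1. A result that this rule names is not reported here. Of the lists around the chain, up to 3 with the smallest p per averaged comparison were named. Python 3.11.15 with matplotlib 3.10.9 drew the figures.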

Additional observations from a re-analysis of the deposited data

How the results depend on the processing

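The direction of the called members, each in the comparison where it was called, was the same in all settings tried. Of their alternative values, 250 stayed on their side of the threshold, 137 no longer passed it, most of them with a library left out, and none changed sign. These values cover called members only, which were selected by their adjusted p, and not the members without a call. All 273 alternative medians by complex kept their sign. In the averaged CD41 difference single libraries moved the median of complex I between 0.03 and 0.21 and that of complex IV between 0.01 and 0.24. Counts of called members moved more. The share of all genes called by each alternative fit is not given, so these counts, here and above, are not set against a background. In the averaged depletion response 13 members were called, against 27 by DESeq2 and 20 without a filter, and between 2 and 17 when 1 library was left out. In CD41- cells 5 were called, against 11 by DESeq2, 3 with library size alone and 2 without the robust fit, and between 0 and 6 when 1 library was left out. In CD41+ cells 0 were called, against 3 by DESeq2. In the averaged CD41 difference 2 were called, against 8 by DESeq2, 4 without a filter, 0 with library size alone, 1 without the robust fit, 1 with the neutrophil covariate and 1 with consecutive title numbers as a block, and between 0 and 3 when 1 library was left out. In control mice 0 were called for CD41, against 3 by DESeq2 and 1 without a filter. DESeq2 called all 13 members of the averaged depletion response and all 5 of that in CD41- cells. The cause of lost calls was not tested. The labels state no pairing, and consecutive title numbers were the grouping tried as a block. The shallowest library held 0.974 M counts, so its floor of 3 counts is 3.08 CPM.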

Other observations

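Cox4i2, the form of subunit 4 known from lung and from hypoxia, was left out of the members by name and had 597 counts in all. It measured 5.78, 3.66 and 2.43 CPM in control CD41- and 15.3, 23.5 and 22.9 CPM in depleted CD41- cells. In CD41+ cells it measured 3.21 and 3.1 CPM in control and 11.1, 19.2 and 17.8 CPM in depleted libraries. All 6 depleted libraries lay above all 5 control libraries, and the averaged log2 fold change was 2.37 ± 0.32 (SE, edgeR, adjusted p = 0.00126), larger than that of any of the 86 members, the highest of which was 0.82. Its estimates in CD41- and CD41+ cells were 2.37 and 2.38, with adjusted p = 0.00543 and 0.0895. The widely expressed form, Cox4i1, had an averaged estimate of 0.0049.

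Genes of complex V that the name rule does not take were also read. Usmg5, a small subunit of the membrane part, had an averaged depletion response of 0.57 ± 0.20 (adjusted p = 0.108), and Atpif1, the inhibitor of the ATP synthase, had 0.26 ± 0.13 (adjusted p = 0.291). Atpif1 was 0.36 ± 0.13 in the averaged CD41 difference (adjusted p = 0.126). These genes were named after their values were seen.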
